A study of Mus musculus with 20 samples.

Results

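The genes of folate one-carbon metabolism and serine synthesis were examined in brain RNA of *Winnie* and C57BL/6 mice. The group holds 9 named genes, *Mthfd1l*, *Mthfd1*, *Mthfd2*, *Shmt1*, *Shmt2*, *Phgdh*, *Psat1*, *Psph* and *Aldh1l1*, and all 9 had a row among the 17211 genes of the deposited table. The group was selected on the *Winnie* against C57BL/6 values of these same brains, *Mthfd1l* first, so the genotype differences of its genes are given as a description. *Winnie* mice carry a missense mutation of the mucin gene *Muc2*, expressed in goblet cells of the gut, and develop chronic colitis without treatment. The C57BL/6 mice came from the same breeding colony, and both groups were killed untreated at 14 weeks of age. There were 10 brains in each group, 5 labelled female and 5 labelled male. Nothing else about the alleles or about the dissection was stated for the samples, and *Muc2* has no row in the table, so the genotype labels could not be checked by its RNA.

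Folate coenzymes carry single-carbon units between amino acids, nucleotides and methyl donors. Serine is the main source of these units. Serine hydroxymethyltransferases move a carbon from serine to tetrahydrofolate and leave glycine, and the units are then oxidised or reduced by parallel enzymes in mitochondria and in the cytosol. Mitochondria release them as formate, which the cytosol uses for purine and thymidylate synthesis. Brain serine is made largely in astrocytes from the glycolytic intermediate phosphoglycerate, and supplies D-serine, glycine and sphingolipids.

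C57BL/6 libraries had 16540303 to 23923769 reads (median 19176351), and *Winnie* libraries 16950781 to 20104786 (median 19075334). Values are CPM, the reads of a gene divided by its library total and brought to 1 common scale, in which 1 read was worth 0.0418 to 0.0605 CPM, and 3 reads, taken as the floor, at most 0.181 CPM. *Xist* and *Ddx3y* went with the sex label in 10 of 10 *Winnie* samples and against it in 9 of 10 C57BL/6 samples, so sex is named as labelled and no sample was moved. The numbers after the letter S in the sample descriptions run from 1 to 10 for C57BL/6 and from 11 to 20 for *Winnie*. What they stand for is not stated, and an effect of their order cannot be told apart from genotype. All 12 neuron, 15 astrocyte and 10 oligodendrocyte markers were detected in every brain. The cerebellar markers *Gabra6* (0 to 7.44 CPM) and *Pcp2* (0 to 5.02 CPM) were at 0 in at least 1 brain, and the part of regional differences between the brains in the results below was not tested. In bulk RNA, fewer cells of a type and less RNA per cell cannot be told apart.

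*Mthfd1l* was higher in every *Winnie* brain than in any C57BL/6 brain, and it was the only one of the 9 genes whose groups did not overlap. *Mthfd1l* (ENSMUSG00000040675, chromosome 10, 3973118 to 4167081, plus strand, GRCm38) encodes the mitochondrial formyltetrahydrofolate synthetase, which releases formate from mitochondria. In C57BL/6 brains its level ran from 8.41 CPM at the lowest to 10.8 CPM at the highest, around a median of 9.18 CPM. In *Winnie* brains the lowest value was 10.8, the median 12.6 and the highest 14.4 CPM. The gap between the groups was 0.066 CPM, about the worth of 1 read, between C57BL/6 replicate 4 (10.751 CPM) and *Winnie* replicate 9 (10.817 CPM). Mean expression was 9.36 ± 0.869 CPM in C57BL/6 against 12.6 ± 1.07 CPM in *Winnie* brains (SD, n = 10 each). The log2 fold change, *Winnie* against C57BL/6 on the log2(CPM + 0.5) scale, was 0.41 (SE 0.060, 95% interval 0.29 to 0.53), or 1.328-fold. The values rest on 149 to 269 reads per brain, for which counting alone gives a coefficient of variation of 6.92%, against 9.29% between C57BL/6 and 8.54% between *Winnie* brains. In the limma fit over all genes, *Mthfd1l* ranked 1 of 17211 by p, with a Benjamini-Hochberg false discovery rate (FDR) of 0.00108. Groups did not overlap, with *Winnie* higher, for 4 genes of the whole table (0.0232%), with *Winnie* lower for 1 (0.00581%), or 0.0291% in either direction, and 261 genes (1.52%) were higher in *Winnie* at an FDR under 0.05. None of the 17211 genes passed the threshold of the study's methods, an FDR under 0.001 with a minimum fold change, whereas 3030 genes (17.6%) had an unadjusted p under 0.05 with limma and 12 passed that threshold with DESeq2.

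**Figure D1:**
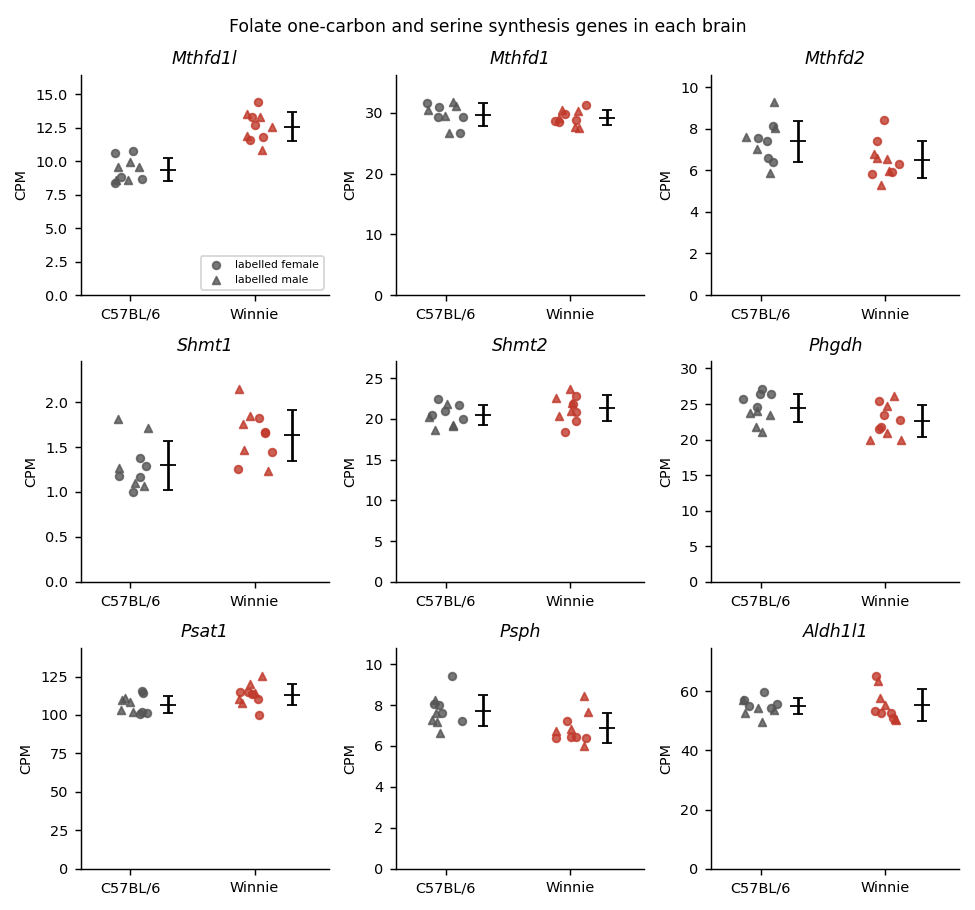
CPM of the 9 genes in each brain (vertical axes, from 0), with circles for samples labelled female, triangles for samples labelled male, and the mean and SD of 10 brains at the right of each group. *Mthfd1l* lies between 8.41 and 10.8 CPM in C57BL/6 and between 10.8 and 14.4 CPM in *Winnie* brains, and the groups of the other 8 genes overlap.

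The balance between long and short transcripts also differed between the genotypes. A length index was taken per brain, the mean log2 level of the 10% of genes with the longest transcripts minus that of the 10% with the shortest, each gene relative to its mean over all brains. It ranged from -0.21 to 0.13 (log2, median -0.09) in C57BL/6 and from -0.00 to 0.15 (median 0.05) in *Winnie* brains (2-sided permutation test, p = 0.0036). The same index for GC content had a permutation p of 0.562. The longest *Mthfd1l* transcript, of 3687 bases, stands at the 56.6th percentile of length and, at 51.7% GC, at the 60.4th percentile of GC. Within genotypes, *Mthfd1l* and the length index had a Pearson r of 0.20 (Spearman rho 0.18, permutation p = 0.418 and 0.472, adjusted p = 0.637 and 0.652 over 18 relations, n = 20, r 0.13 in C57BL/6, 0.38 in *Winnie* and 0.28 without the 2 brains farthest from the median). With the length index as a covariate, chosen after seeing the data, the log2 fold change of *Mthfd1l* was 0.37 (SE 0.076) with a limma FDR of 0.0573, and 4 genes of the whole table passed an FDR of 0.05 in place of 434. With the length and GC indices together it was 0.38 (FDR 0.0363, 23 genes passing). What lies behind the index was not tested, and a property of the library cannot be told apart from one of the brain tissue.

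The sequence before the start of *Mthfd1l* is shown as context for the gene whose groups were apart, and no peak or methylation data were used here. It is the 250 bases before the RefSeq start (GRCm38.p6, chr10:3972825-3973074, plus strand), in lower case with each CG dinucleotide in capitals.
*Mthfd1l* upstream: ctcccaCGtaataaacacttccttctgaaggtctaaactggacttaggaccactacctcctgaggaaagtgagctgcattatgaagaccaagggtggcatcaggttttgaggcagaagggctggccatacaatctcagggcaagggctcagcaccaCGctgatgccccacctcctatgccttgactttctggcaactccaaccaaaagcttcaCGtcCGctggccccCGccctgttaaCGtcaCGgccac
The window holds 7 CG dinucleotides, against a median of 6 over all RefSeq promoter windows, and its GC content of 54.4% is at the 56.5th percentile. Searched on both strands, neither TGATGNAA, the core of the element that ATF4 and C/EBP proteins share, nor CACGTG, the E-box of MYC and USF factors, occurs in it or in the same window of the other 8 genes. Over 32851 promoters, 3.45% hold TGATGNAA and 6.02% hold CACGTG.

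Genes around *Mthfd1l* were read beside it. Of 12 measured genes within 1000 kb, 0 had a limma FDR under 0.05 and 1, *Armt1*, had an unadjusted p under 0.05, with a log2 fold change of -0.13 (SE 0.046). The others ranged from -0.13 for *Ccdc170* to 0.18 for *Plekhg1*, the gene just upstream, whose interval of -0.08 to 0.43 reached that of *Mthfd1l*. The intervals of *Gm21781* (-0.03 to 0.36) and *Esr1* (-0.16 to 0.31) also reached that of *Mthfd1l*. *Gm16074*, a processed pseudogene within *Mthfd1l* on the same strand, had 6 to 23 reads per brain and a log2 fold change of -0.07. No exonic base of *Mthfd1l* is shared with another annotated gene.

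**Figure D2:**
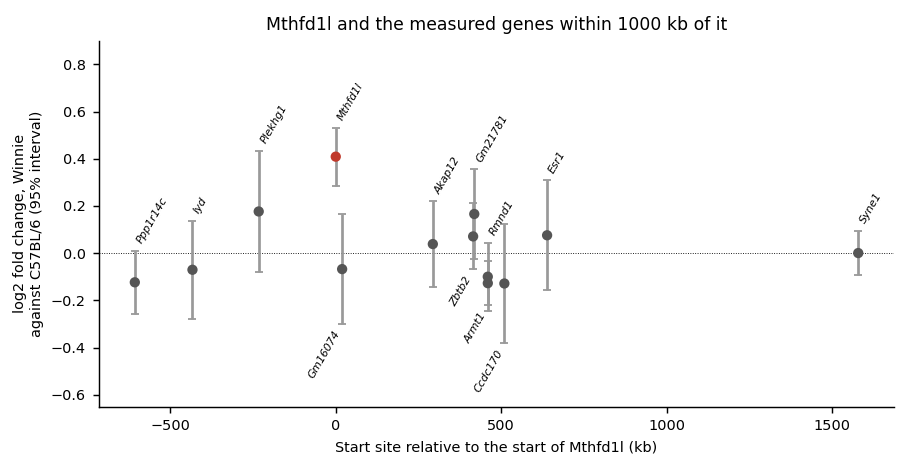
Log2 fold change of *Winnie* against C57BL/6 brains with its 95% interval (vertical axis) for *Mthfd1l* and the 12 measured genes within 1000 kb, by the distance of their start sites from that of *Mthfd1l* in kb (horizontal axis, *Syne1* starting farther away but ending within the window). *Mthfd1l*, in red, is at 0.41 and the others lie between -0.13 and 0.18.

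The values of the related folate enzymes overlapped between the groups. *Mthfd2* (chromosome 6, 83305691 to 83325908, minus strand), a mitochondrial methylenetetrahydrofolate dehydrogenase and cyclohydrolase that acts before MTHFD1L, ranged from 5.85 to 9.28 CPM (median 7.46) in C57BL/6 and from 5.28 to 8.44 CPM (median 6.41) in *Winnie* brains. The groups overlapped widely, although 9 of 10 *Winnie* brains were below the C57BL/6 median, and the log2 fold change was -0.17 (SE 0.079, FDR 0.250). *Mthfd1* (chromosome 12, 76255298 to 76319803, plus strand) encodes the cytosolic enzyme that joins all of these activities in a single protein. It lay between 26.6 and 31.8 CPM (median 29.95) in C57BL/6 and between 27.5 and 31.4 CPM (median 29.0) in *Winnie* brains. All *Winnie* values fell inside the C57BL/6 range, and the log2 fold change of -0.02 had an interval of -0.11 to 0.06 (FDR 0.833). Its interval and that of *Mthfd1l* did not overlap. With the length index as a covariate *Mthfd2* was at -0.11 (SE 0.10, FDR 0.811) and *Mthfd1* at -0.05 (SE 0.053, FDR 0.845). The related gene *Mthfd2l*, not among the 9, had a mean of 10.3 CPM in C57BL/6 and 9.74 CPM in *Winnie* brains. Its log2 fold change was -0.06 (SE 0.084, FDR 0.757).

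The serine hydroxymethyltransferases, which load the carbon from serine, were both in the table. *Shmt2* (chromosome 10, 127517123 to 127522444, minus strand), the mitochondrial form, ranged from 18.6 to 22.5 CPM (median 20.4) in C57BL/6 and from 18.5 to 23.7 CPM (median 21.5) in *Winnie* brains, a log2 fold change of 0.06 (SE 0.049, FDR 0.593). *Shmt1* (chromosome 11, 60788104 to 60811718, minus strand), the cytosolic form, ranged from 0.996 to 1.81 CPM (median 1.22) in C57BL/6 and from 1.24 to 2.15 CPM (median 1.66) in *Winnie* brains. Each of the 10 *Winnie* brains was above the C57BL/6 median, but the ranges overlapped, and the log2 fold change of 0.25 (SE 0.097, interval 0.05 to 0.45) did not pass the test over all genes (FDR 0.168). Only 19 to 40 reads per brain lie behind *Shmt1*, so that counting alone gives a coefficient of variation of 18.9%, near the 20.8% and 17.4% seen between C57BL/6 and *Winnie* brains. Overlapping genes on the opposite strand share 4.74% of its exonic bases, and how reads there were assigned is not given in the sources used here. With the length index as a covariate the log2 fold change of *Shmt1* was 0.38 (SE 0.12, unadjusted p = 0.00404, limma FDR 0.288), as large as the 0.37 of *Mthfd1l* in that fit, and with both indices it was 0.40 (FDR 0.199). *Shmt2* was 0.11 (SE 0.060, FDR 0.596) with the length index.

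The serine synthesis enzymes act in series. *Phgdh* (chromosome 3, 98313170 to 98339990, minus strand), the first and committing dehydrogenase, ranged from 21.03 to 27.1 CPM (median 24.4) in C57BL/6 and from 19.9 to 26.1 CPM (median 22.3) in *Winnie* brains, with a log2 fold change of -0.11 (SE 0.056, FDR 0.311), or -0.06 (SE 0.071, FDR 0.865) with the length index as a covariate. *Psat1* (chromosome 19, 15904678 to 15947337, minus strand), the aminotransferase of the middle step, ranged from 100.6 to 115.3 CPM (median 105.7) in C57BL/6 and from 99.9 to 125.5 CPM (median 114.0) in *Winnie* brains. Its log2 fold change was 0.08 (SE 0.039, FDR 0.252), and 9 of 10 *Winnie* brains were above the C57BL/6 median. Within genotypes *Psat1* went against the length index, the only one of the 18 relations with an adjusted p of r under 0.05 (r -0.62, rho -0.61, permutation p = 0.00211 and 0.00809, adjusted p = 0.0380 and 0.146, n = 20, r -0.64 in C57BL/6, -0.74 in *Winnie* and -0.60 without the 2 farthest brains). With that index as a covariate its log2 fold change was 0.16 (SE 0.044, limma FDR 0.210). *Psph* (chromosome 5, 129765558 to 129787449, minus strand), the phosphatase that releases serine, ranged from 6.64 to 9.43 CPM (median 7.61) in C57BL/6 and from 6.02 to 8.46 CPM (median 6.60) in *Winnie* brains. Its log2 fold change was -0.16 (SE 0.067, FDR 0.191), with 8 of 10 *Winnie* brains below the C57BL/6 median. *Phgdh* and *Psph* were thus on the lower side in *Winnie* brains and *Psat1* on the higher side, and none passed the test. Of the exonic bases of *Psph*, 10.4% also belong to an overlapping *Cct6a* transcript, and how reads there were assigned is not given in the sources used here.

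*Aldh1l1* (chromosome 6, 90486427 to 90600203, plus strand) encodes the cytosolic formyltetrahydrofolate dehydrogenase, which oxidises the carbon unit to carbon dioxide and marks astrocytes in brain. It ranged from 49.5 to 59.6 CPM (median 54.8) in C57BL/6 and from 50.4 to 65.2 CPM (median 53.0) in *Winnie* brains. The log2 fold change was 0.01 (interval -0.09 to 0.10, FDR 0.974), or 0.02 (FDR 0.958) with the length index as a covariate, and the SD was 5.34 CPM in *Winnie* against 2.73 CPM in C57BL/6 brains. Overlapping genes share 13.4% of its exonic bases. Over the 9 genes, 5 were higher and 4 lower in *Winnie* brains, with a median log2 fold change of 0.01 beside 0.00 over all genes, and 1 of 9 passed an FDR of 0.05 (2.52% of all genes did, in either direction). At an unadjusted limma p under 0.05 there were 5 of 9 (3 higher and 2 lower), against 17.6% of all genes. The median absolute log2 fold change was 0.11, against 0.07 over all genes. The group was selected on these same values, so these shares are a description.

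Levels between genes were compared as CPM per kb of exon over all 20 brains. *Psat1* was highest at 25.9 ± 1.65 (SD, n = 20), followed by *Aldh1l1* at 12.2 ± 0.916 and *Phgdh* at 9.47 ± 0.914, and each of these was above the next in 20 of 20 brains. *Shmt2* (6.73 ± 0.470) and *Mthfd1* (6.64 ± 0.354) overlapped, with *Shmt2* higher in 13 of 20 brains. *Mthfd1l* (2.47 ± 0.430), *Mthfd2* (1.99 ± 0.294) and *Psph* (1.68 ± 0.198) followed with overlapping ranges, *Mthfd1l* being above *Mthfd2* in 14 of 20 brains and *Mthfd2* above *Psph* in 15 of 20. *Shmt1* was lowest at 0.377 ± 0.082. The order of *Mthfd1l* and *Mthfd2* was not stable. In C57BL/6 brains they were level, at 2.11 ± 0.196 and 2.12 ± 0.283 CPM per kb (SD, n = 10), whereas *Winnie* brains had 2.84 ± 0.242 and 1.87 ± 0.257, and dividing by the longest transcript put *Mthfd2* first (3.33 against 2.98). Among all genes with a length, *Psat1* was at the 89.5th percentile of level per length, *Mthfd1l* at the 38.8th and *Shmt1* at the 10.6th.

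**Figure D3:**
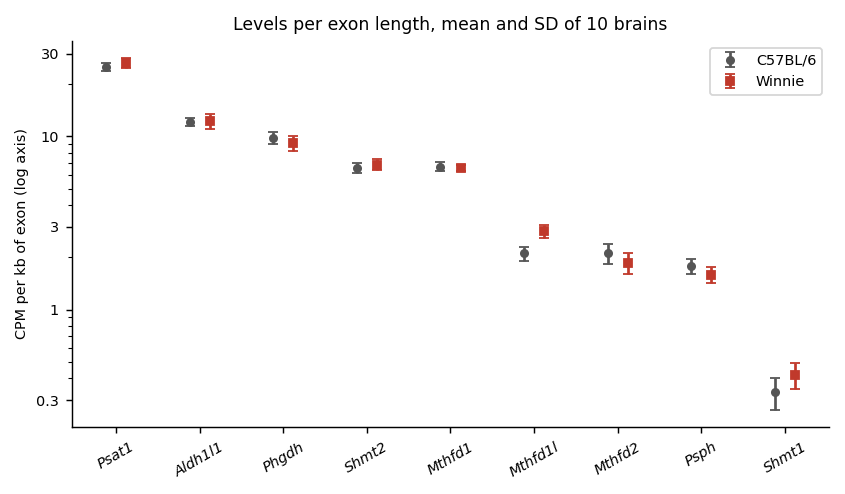
Mean CPM per kb of exon (vertical log axis) of the 9 genes, ordered by their mean over all brains, with SD bars over 10 C57BL/6 (grey) and 10 *Winnie* brains (red). Levels run from 25.9 for *Psat1* to 0.377 for *Shmt1* over all brains, and *Mthfd1l* is the gene whose SD bars are apart between genotypes.

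A contrast that had no part in choosing the genes was the labelled sex within *Winnie* brains, where the labels went with *Xist* and *Ddx3y*. None of the 9 genes passed (limma, smallest FDR 0.806, 0 at an unadjusted p under 0.05), beside 20 of all genes (0.116%) at an FDR under 0.05 and 9.81% at an unadjusted p under 0.05. *Mthfd1l* was 12.8 ± 1.14 CPM (SD, n = 5) in brains labelled female and 12.4 ± 1.10 CPM (SD, n = 5) in those labelled male, a log2 difference, male minus female, of -0.04 with an interval of -0.21 to 0.13. The widest mean difference among the 9 was -0.10 for *Mthfd2* and 0.10 for *Psph*, with intervals of -0.33 to 0.13 and -0.10 to 0.31. The genotype difference was also compared between labelled sexes with a limma interaction term. *Xist* and *Ddx3y* went against the label in 9 of 10 C57BL/6 samples, so most samples that share a label differ in sex between genotypes. The term therefore compares labels only, and cannot show whether the genotype difference depends on sex. The log2 fold change of *Mthfd1l* was 0.42 (SE 0.093) in samples labelled female and 0.40 (SE 0.086) in samples labelled male, an interaction of -0.02 (SE 0.12, FDR 0.993). For the 9 genes the smallest interaction FDR was 0.831, that of *Shmt2*, and 0 had an unadjusted p under 0.05, beside 12 of all genes (0.0697%) at an FDR under 0.05 and 6.12% at an unadjusted p under 0.05.

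Variation of the genes from brain to brain was compared within genotypes. After the mean of each genotype was subtracted, 0 of the 36 pairs had an adjusted p under 0.05, and r was positive for 26 pairs. The highest r was that of *Psph* with *Aldh1l1*, at 0.656 (rho 0.589, permutation p = 0.00265 and 0.00862, adjusted p = 0.0954 and 0.310, n = 20). It was 0.39 in C57BL/6 and 0.83 in *Winnie* brains, and 0.46 without the 2 brains farthest from the median. *Mthfd1l* had its highest r with *Mthfd1*, at 0.39 (rho 0.37, permutation p = 0.0981 and 0.114, adjusted p = 0.491 and 0.422, 0.59 in C57BL/6, 0.10 in *Winnie* brains and 0.48 without the 2 farthest), and an r of 0.11 with *Mthfd2* (rho 0.16, adjusted p = 0.859 and 0.795). Leaving out C57BL/6 replicate 6 brought the pair of *Psph* and *Aldh1l1* past the threshold as the only pair.

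**Figure D4:**
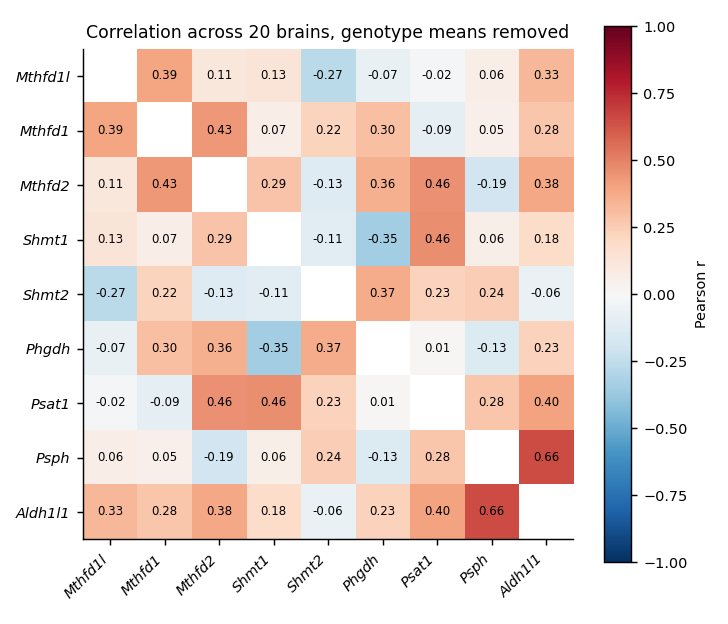
Pearson r between the log2(CPM + 0.5) levels of the 9 genes over 20 brains after subtracting each genotype's mean, with colour from -1 (blue) to 1 (red). The highest value is 0.66 for *Psph* and *Aldh1l1*, and *Mthfd1l* has no r above 0.39.

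Among 15167 genes with a mean of at least 1 CPM, those whose levels went most closely with *Mthfd1l* over the 20 brains, genotype means removed, were *Ipo5* (r 0.84), *Ttc3* (0.82), *Zkscan1* (0.81), *Wdr7* (0.80) and *Mtor* (0.80). The most opposite were *Csf3r* (r -0.83), *Maz* (-0.82), *Cxxc1* (-0.78), *Crtc2* (-0.77) and *Rabl2* (-0.76). All brains share 1 library each and their depth and scaling, and these r values are given as a description. Of *Mthfd1l*'s r values with all genes, 3.01% were beyond 0.6 in size, against 0.633% for *Mthfd2* and 3.61% for *Aldh1l1*. *Mtor*, the kinase of the mTOR complexes, was also among the 4 genes with higher, separate *Winnie* values, at 136 ± 6.93 against 122 ± 4.55 CPM (SD, n = 10 each; log2 fold change 0.16, limma FDR 0.0157). *Maz* had a log2 fold change of -0.12 (FDR 0.0483), and the other 8 had an FDR of 0.162 or more.

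Cell type markers were summed per brain for 12 lists, and the sums of the groups overlapped for each list. Astrocyte markers summed to 5594 to 6677 CPM in C57BL/6 and 5783 to 6608 CPM in *Winnie* brains, with 1 of 15, *Gjb6*, higher at an FDR under 0.05. At an unadjusted limma p under 0.05, 3 were higher (*Gjb6*, *Fgfr3* and *Slc4a4*) and 3 lower (*Aqp4*, *S100b* and *Sox9*). *Slc1a2* alone had a mean of 2892 CPM in C57BL/6 and 2990 CPM in *Winnie* brains. Neuron markers summed to 11210 to 12412 and 11261 to 12304 CPM, with 0 of 12 passing. Microglia markers summed to 353.3 to 392.2 and 320.5 to 417 CPM, with 0 of 10 passing at an FDR under 0.05, 9 of 10 lower in *Winnie*, 4 of them at an unadjusted p under 0.05, and a median log2 fold change of -0.10. Endothelium and pericyte markers summed to 311 to 400.0 and 332 to 387 CPM, with 9 of 11 higher in *Winnie* and a median log2 fold change of 0.09. At an unadjusted p under 0.05, 4 of these were higher, led by *Slco1a4* at 0.34 (SE 0.091, limma FDR 0.0503), and 1 was lower, *Cldn5* at -0.47 (SE 0.081, FDR 0.00331), the only one to pass. Meningeal fibroblast markers summed to 570.4 to 745 and 667 to 839 CPM, with *Ptgds* and *Slc22a6* higher at an FDR under 0.05. *Ptgds* alone had a mean of 452 CPM in C57BL/6 and 561 CPM in *Winnie* brains. Of the 10 markers 7 were higher and 3 lower. At an unadjusted limma p under 0.05, 3 were higher and 2 lower, the collagens *Col3a1* at -0.28 (FDR 0.136) and *Col1a1* at -0.24 (FDR 0.216). Of the 7 markers of oligodendrocyte precursors, *Pdgfra* and *Vcan* were higher and *Olig2* lower. The other 6 lists (oligodendrocytes, choroid plexus, ependyma, erythroid cells, cerebellum and forebrain) had 0 markers past the threshold. Most of their markers were on the lower side in *Winnie*. These were 8 of 10 for oligodendrocytes (median log2 fold change -0.05), 8 of 9 for choroid plexus (-0.05) and 4 of 6 for ependyma (-0.09). For erythroid cells they were 5 of 5 (-0.28), for cerebellum 7 of 10 (-0.18) and for forebrain 6 of 7 (-0.08). For the covariate and the relations that follow, the level of a list was the mean log2(CPM + 0.5) of its markers and not their sum. With the astrocyte level as a covariate *Mthfd1l* had a log2 fold change of 0.41 and an FDR of 0.000678, and the part of the other lists in its difference was not tested. Of 108 relations between the 9 genes and the 12 lists within genotypes, 1 had an adjusted p under 0.05, that of *Phgdh* with the microglia list (r 0.72, rho 0.79, permutation p = 0.00039 and 0.0001, adjusted p = 0.0421 and 0.0108, n = 20). Its r was 0.61 in C57BL/6 and 0.79 in *Winnie* brains, and 0.76 without the 2 brains farthest from the median. *Mthfd1l* had its largest r with the microglia list too, at -0.52 (rho -0.36, permutation p = 0.0188 and 0.108, adjusted p = 0.422 and 0.439, n = 20, r -0.22 in C57BL/6, -0.72 in *Winnie* and -0.34 without the 2 farthest brains), which did not pass the correction. With the astrocyte list its r was 0.03 (rho 0.06, adjusted p = 0.986 and 0.927).

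The wider pathway was read from 6 lists that hold none of the 9 genes. Of 100 listed genes 93 were measured, and 1 was higher and 0 were lower in *Winnie* brains at an FDR under 0.05, beside 1.52% higher and 1.01% lower of all genes. At an unadjusted p under 0.05 there were 21 (22.6%, 11 higher and 10 lower), against 17.6% of all genes, and the median log2 fold change was -0.01. In the folate cycle 0 of 18 measured genes passed, with *Fpgs*, which adds glutamates to folates, at 0.24 (5.01 ± 0.583 CPM in C57BL/6 and 6.07 ± 1.12 CPM in *Winnie*, SD, n = 10 each, FDR 0.113) and *Qdpr*, a reductase of biopterin, at -0.17 (FDR 0.123) as the extremes. In the glycine cleavage list 0 of 7 passed, the extremes being *Pipox* at 0.08 and *Amt*, the aminomethyltransferase that gives the carbon of glycine to folate, at -0.15 (FDR 0.126). In the methionine cycle 0 of 11 passed, from -0.15 for *Gamt*, which makes creatine, to 0.16 for *Ahcy*, which hydrolyses adenosylhomocysteine. Serine use and transport had 0 of 16, from -0.21 for the glycine transporter *Slc6a5* to 0.14 for *Sfxn2*, a sideroflexin. *Slc6a5* varied between 0.158 and 6.42 CPM over the brains, and its log2 fold change has an SE of 0.51. With a sample left out it ran from -0.39 without C57BL/6 replicate 3 to -0.02 without *Winnie* replicate 9. Over all 35 alternatives it ran from -0.85 to -0.02. With a sample left out *Sfxn2* ran from 0.083 (without C57BL/6 replicate 5) to 0.195 (without C57BL/6 replicate 2), and *Pipox* from 0.034 (without C57BL/6 replicate 3) to 0.144 (without *Winnie* replicate 7). Purine synthesis, which takes up formyl groups, had 0 of 13, from -0.09 for *Impdh1* to 0.17 for *Adssl1*.

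The gene that passed was *Slc7a5*, in the list of 29 measured targets of ATF4, a transcription factor of the amino acid response that is known to activate genes of serine synthesis. *Slc7a5* encodes the large neutral amino acid transporter LAT1, which carries tryptophan, leucine and others across the blood-brain barrier. It ranged from 65.2 to 85.2 CPM (median 73.1) in C57BL/6 and from 85.6 to 98.0 CPM (median 90.5) in *Winnie* brains. As with *Mthfd1l*, the groups did not overlap, and the means were 74.6 ± 6.15 and 90.5 ± 3.85 CPM (SD, n = 10 each), a log2 fold change of 0.28 (SE 0.042, limma FDR 0.00108). With the length index as a covariate its log2 fold change was 0.26 and its FDR 0.0573, and over 35 alternatives the log2 fold change was 0.26 to 0.30. The other 28 measured targets did not pass, with *Cebpb*, a partner of ATF4, lowest at -0.27 (SE 0.13, FDR 0.255), and the list's median was 0.00, with 15 genes higher and 14 lower. At an unadjusted limma p under 0.05, 5 genes of the list were higher and 4 lower. *Atf4* itself was at 135 ± 11.6 CPM in C57BL/6 and 124 ± 8.15 CPM in *Winnie* brains (SD, n = 10 each). Its log2 fold change was -0.12 (SE 0.047, FDR 0.148), and the part of ATF4 was not tested.

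**Figure D5:**
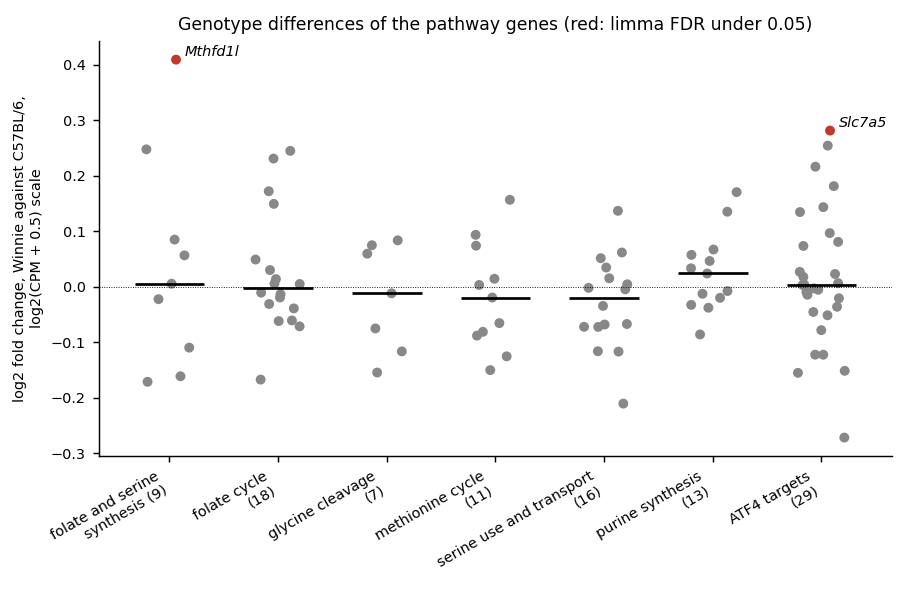
Log2 fold change of *Winnie* against C57BL/6 brains on the log2(CPM + 0.5) scale (vertical axis) for the 9 genes and the 6 lists of the wider pathway (horizontal axis, measured genes in parentheses), 1 point a gene, with a bar at each median. *Mthfd1l* at 0.41 and *Slc7a5* at 0.28, in red, are the genes past a limma FDR of 0.05.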

How the data were processed

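Brain RNA from each mouse was made by the authors into MGIEasy libraries and sequenced in pairs of 100 bases. Reads were counted per gene with featureCounts on GRCm38, per the labels and the study's methods, and deposited as CPM by the authors. The aligner and the strandedness of the counting are not given in the sources used here. Every deposited CPM value was a whole number of reads (tolerance 0.1 read, 100% of values), and the reads recovered gave the depths stated. No pair of samples was a duplicate. The study's text gives fewer mice for the brain than the labels do, and all 20 labelled samples were used.

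All 17211 genes were fitted with limma 3.58.1 (R 4.3.3, trend and robust variance) on log2(CPM + 0.5), *Winnie* against C57BL/6 without covariates, with p-values adjusted over all genes by Benjamini-Hochberg (FDR) and called under 0.05. The study's methods give edgeR, which needs counts, so the recovered reads were tested with edgeR 4.0.16 and with DESeq2 1.42.0 as alternatives. Correlations used 2-sided permutation within genotype with 100000 resamples (scipy 1.17.1). Exon lengths and coordinates come from GENCODE M21, which matched 17128 genes, and promoters from RefSeq, which held all 9 genes. P-values measure the spread between mice, and floors and read-based variation cover counting error only. Intervals are 95%.

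The 9 genes, the pathway and marker lists and the tests were chosen with earlier results of these data known. Named are the 9 genes, each list's called and extreme genes, and the 5 genes most like and most unlike *Mthfd1l*. Also named are *Mthfd2l*, *Atf4*, and neighbours and markers where a result turns on them, which were chosen after their values were seen. Simulated data of this design had 200 of 17211 genes changed. There limma found 71.5% of 1.33-fold and 81.5% of 1.5-fold changes, with 10 and 5 false calls. Whether these shares and counts hold for brains whose length index differs between genotypes, as here, was not tested.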

Additional observations from a re-analysis of the deposited data

How the results depend on the processing

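*Mthfd1l* had a log2 fold change of 0.37 to 0.43 over 35 alternatives and an FDR under 0.05 in 34, with adjusted p-values from 1.24e-07 (DESeq2) to 0.0573 (length index as a covariate, log2 fold change 0.37, where 0 of the 9 genes and 0 other pathway genes passed). With a sample left out its log2 fold change was 0.39 to 0.43 and its adjusted p 0.000424 to 0.00327. The other 8 genes gave 279 values, none of them past an FDR of 0.05, and 6 with the opposite sign, all of *Aldh1l1*: -0.00053 with the GC index, and -0.011, -0.0012, -0.022, -0.018 and -0.0029 without C57BL/6 replicates 6 and 8 and *Winnie* replicates 4, 6 and 7, in a range of -0.022 to 0.019 over the samples left out. The count of genes past an FDR of 0.05, 434 in all brains, was 977 with DESeq2, 227 with a replicate block, 23 with both indices and 4 with the length index. Leaving out 1 sample gave 169 to 694. It was 238, 169, 250, 270 and 694 without C57BL/6 replicates 3, 5, 8, 9 and 10, and 264, 241, 256 and 216 without *Winnie* replicates 2, 3, 7 and 8. Genes past the study's threshold were 12 with DESeq2, 1 with the GC index and 0 to 2 with a sample left out (2 without C57BL/6 replicate 2, and 1 without C57BL/6 replicate 10 or *Winnie* replicate 9). Other pathway genes past an FDR of 0.05 were 2 with median-ratio scaling, quantile normalization, the astrocyte covariate or edgeR, 6 with DESeq2, and 1 to 4 with a sample left out (4 without C57BL/6 replicate 1, and 2 without C57BL/6 replicate 2, 7 or 10 or *Winnie* replicate 4 or 5). *Qdpr* passed with DESeq2 (0.0375) and without *Winnie* replicate 4 (0.0423). Genes passing between labelled sexes within *Winnie* were 12 to 67 (67, 12, 12 and 43 without replicates 1, 2, 4 and 10), with 0 of the 9 genes among them. Pairs of correlated genes were 0 to 1. The causes of these shifts were not tested. Same-numbered samples of the groups had correlations of -0.29 to 0.15, above 0.1 in 2 of 10 pairs, and 1 of 10 correlated best with its own number, so the numbers do not pair the brains. Depth limits *Shmt1* most, with 19 to 40 reads per brain.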
